A study of Rattus norvegicus with 6 samples.

Results

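The genes of the proteasome were followed in the jejunum of heat-stressed and shaken rats. A gene was taken as a member where its rat symbol was Psma, Psmb, Psmc, Psmd, Psme, Psmf or Psmg with a number and nothing after it, and where a probe of the array carried its RefSeq accession. This gave 44 genes with 52 probes, of 13837 genes that could be named on the array. The rule itself used no expression value, though it was set with earlier results of these data known. A gene with several probes was read from its brightest probe. Psmb11, Psmd11, Psmg1 and Psmg3 had no probe by accession, and Psmc3ip and Psme3ip1 were left out for the letters after their number. Psma8, whose product is the alpha subunit of the testis, was not tested, because its probe was well above background on none of the arrays labelled control and on 1 of the arrays labelled S3d. The other 43 genes were well above background on all 6 arrays.

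The study asked how 3 days of heat and shaking alter gene expression in the jejunum. All rats were male Sprague-Dawley rats of 6 weeks weighing 200 ± 20 g. The control group was housed at 25°C and was not stressed, whereas the S3d group was shaken at 0.1 g in a chamber at 35°C on 3 days, each time for 2 h. Each group had 3 arrays, 1 for each RNA sample, and each sample was a pool of jejunal RNA from 3 rats. The labels give 10 rats per group and no further difference in genotype or agent, and they do not say whether any rat entered more than 1 pool. The study's methods give fewer rats per group, a number with which the pools of a group would have to share rats, so that p-values measure the spread between these pools.

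The proteasome is the protease that degrades proteins marked with ubiquitin. Its core particle is a barrel of alpha rings, which gate the entrance, around beta rings, which hold the protein-cutting sites. A regulatory particle sits on the barrel, and it consists of a base, whose ATPases unfold the substrate, and a lid, which removes the ubiquitin chain. The small intestine renews its epithelium constantly, and in tissues with immune cells or under interferon-gamma the catalytic beta subunits are replaced by their immunoproteasome counterparts.

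The promoters of 6 members are shown. Psmd3 had the highest and Psmd9 the lowest value of all members tested below, and Psmb5 the lowest of the catalytic subunits of the core. Psmb8, Psmb9 and Psmb10 belong to the immunoproteasome. Other genes with the lowest or highest value of their group, such as Psmb3, are not shown. Each promoter shown is the RefSeq window of 300 bases in the GRCr8 assembly, on the strand of the gene. It runs from 250 bases before to 50 bases after the annotated start of the gene. Capitals mark letters that match TGACNNNGC, a form of the antioxidant response element that NFE2L1 and NFE2L2 bind, on either strand.
Psmd3, chr10:84139688-84139987, plus strand: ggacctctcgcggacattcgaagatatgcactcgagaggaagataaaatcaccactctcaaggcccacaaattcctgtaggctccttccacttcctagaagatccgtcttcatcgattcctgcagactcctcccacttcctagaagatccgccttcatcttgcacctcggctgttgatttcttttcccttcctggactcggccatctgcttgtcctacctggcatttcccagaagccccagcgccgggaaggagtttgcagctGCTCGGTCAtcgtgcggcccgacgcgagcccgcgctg
Psmb5, chr15:32047330-32047629, minus strand: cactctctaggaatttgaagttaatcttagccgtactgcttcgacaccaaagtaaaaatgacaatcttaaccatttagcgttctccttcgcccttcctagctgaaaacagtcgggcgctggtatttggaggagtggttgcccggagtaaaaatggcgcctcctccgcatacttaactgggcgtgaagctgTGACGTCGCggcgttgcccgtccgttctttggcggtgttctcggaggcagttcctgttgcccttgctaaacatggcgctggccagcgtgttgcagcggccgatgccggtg
Psmd9, chr12:39018215-39018514, minus strand: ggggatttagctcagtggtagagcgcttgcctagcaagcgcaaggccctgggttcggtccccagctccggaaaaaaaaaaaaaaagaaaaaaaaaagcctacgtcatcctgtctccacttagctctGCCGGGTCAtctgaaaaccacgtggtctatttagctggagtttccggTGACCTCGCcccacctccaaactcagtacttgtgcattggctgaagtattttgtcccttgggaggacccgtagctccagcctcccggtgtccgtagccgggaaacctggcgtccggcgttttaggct
In the next promoters, capitals mark GAAANNGAAA, a form of the element of the interferon regulatory factors, on either strand.
Psmb8, chr20:4656982-4657281, minus strand: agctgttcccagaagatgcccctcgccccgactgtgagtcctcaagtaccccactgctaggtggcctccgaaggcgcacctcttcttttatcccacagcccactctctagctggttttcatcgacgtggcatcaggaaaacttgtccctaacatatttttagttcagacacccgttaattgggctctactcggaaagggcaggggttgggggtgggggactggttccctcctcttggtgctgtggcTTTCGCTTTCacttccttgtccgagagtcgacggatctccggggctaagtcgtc
Psmb10, chr19:50743243-50743542, minus strand: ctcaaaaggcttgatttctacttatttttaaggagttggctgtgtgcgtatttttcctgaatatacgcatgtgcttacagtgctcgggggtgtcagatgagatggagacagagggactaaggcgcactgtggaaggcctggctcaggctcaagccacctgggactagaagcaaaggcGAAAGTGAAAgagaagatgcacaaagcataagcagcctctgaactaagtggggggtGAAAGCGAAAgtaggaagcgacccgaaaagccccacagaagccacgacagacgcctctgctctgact
Psmb9 lies beside Tap1, a transporter of antigenic peptides, and their annotated starts are 457 bases apart. Capitals mark the 44 bases that its window shares with that of Tap1.
Psmb9, chr20:4668750-4669049, plus strand: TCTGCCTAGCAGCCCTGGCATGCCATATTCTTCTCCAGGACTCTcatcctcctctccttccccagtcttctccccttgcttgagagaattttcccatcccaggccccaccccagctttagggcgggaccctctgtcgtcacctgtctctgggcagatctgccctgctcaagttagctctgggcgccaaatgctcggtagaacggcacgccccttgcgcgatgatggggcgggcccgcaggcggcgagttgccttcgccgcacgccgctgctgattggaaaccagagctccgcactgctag

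Of the 44 members, 40 had a promoter in the RefSeq table, which had none for Psma7, Psmd6, Psmd12 and Psmd14. TGACNNNGC stood in 8 of the 40, namely Psma3, Psmb2, Psmb5, Psmb6, Psmd1, Psmd3, Psmd9 and Psme4, and in 12.1% of all 33469 promoters of the table. GAAANNGAAA stood in 7 of the 40, namely Psma4, Psmb3, Psmb8, Psmb10, Psmd7, Psme2 and Psmg4, and in 3.92% of all promoters. GAANNTTCNNGAA, a form of the heat shock element, stood in none of the 40 and in 0.798% of all promoters. No match of one motif overlapped a match of another in these genes.

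Signals are given as the log2 of the processed signal of the scanner less the array's own 75th percentile, and a difference is the mean of the arrays labelled S3d minus that of the arrays labelled control. Directions follow the labels of the scanner files. The deposited table of normalized values carries the group labels the other way round: each of its 6 columns had a Spearman correlation of 1.0 with a scanner file of the other group and of 0.9415 to 0.9519 with the scanner file of its own label. Directions below therefore run against those of the deposited table and of the study. No sample was reassigned, and which labels are right was not tested. The study's RT-PCR of other genes was not used to decide this. A signal lower on the arrays labelled S3d is thus not shown to be lower after stress, and likewise for a higher one. The raw 75th percentile was 414.4 to 430.1 on the arrays labelled control and 1456.1 to 1565.7 on those labelled S3d, and no spot was saturated. The 3 arrays of each group lay on a slide of their own, with 450 days between the scans, so that slide, scan and group cannot be told apart. Of 31431 probes tested, 74.0% were called at an adjusted p under 0.05, 39.6% higher and 34.4% lower, and of 11505 named genes, each read from its brightest probe, 73.5% were called, 36.3% higher and 37.2% lower. The groups did not overlap at 78.9% of all probes and for 78.8% of the named genes.

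Markers of cell types moved with the groups. On the arrays labelled S3d, 7 of 9 enterocyte markers measured were lower and 1 was higher, with a median difference of -1.09, but with quantile normalization 2 were lower and 3 higher, a setting described below. Their summed level was 1610 to 1640 times the array's 75th percentile against 3720 to 4150 on the arrays labelled control. Of 8 leukocyte markers tested, 6 were lower and 1 was higher, or 4 and 2 with quantile normalization, with a summed level of 128 to 140 against 193 to 211 over the whole list. The smooth muscle list summed to 116 to 138 against 126 to 152, and the goblet and Paneth cell list to 349 to 371 against 940 to 994. Of 3 genes tested of the goblet and Paneth cell list 2 were lower, with a median of -0.67, but with quantile normalization 1 was lower and 1 higher, with a median of 0.07. Defa5 was not above background on any array. The jejunal markers Fabp1, Fabp2 and Apoa4 were well above background on all arrays. The part of these cell types in the values below was not tested, and fewer cells of a type and less RNA per cell cannot be told apart in whole jejunum.

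With percentile scaling most proteasome genes had a lower signal on the arrays labelled S3d, while most of the lid of the regulatory particle was higher. Of the 43 genes tested, 28 were lower, 8 were higher and 7 were not called. Of all probes tested, 34.4% were lower and 39.6% higher. The median difference over the 43 genes was -0.47, against 0.09 over all probes tested and 0.01 over the named genes. The groups did not overlap for 37 of the 43 genes, and at 78.9% of all probes. Differences ranged from -1.89 for Psmd9 to 1.49 for Psmd3. These counts depended on how the arrays were brought to a common scale. With quantile normalization, which gives every array the same distribution of signals, 15 genes were lower and 13 were higher, where 35.5% and 35.0% of all probes were, and the median of the 43 genes was -0.05. With normexp, a model-based background correction, before the same percentile scaling, 26 were lower and 12 higher, where 60.2% and 21.1% of all probes were, and the median of the genes lay 0.13 above that of all probes. With median centring, which subtracts each array's median, 31 were lower and 7 higher, where 42.2% and 31.7% of all probes were. In the deposited table, by its own labels, 13 were lower and 15 higher, where 34.7% and 35.2% of all probes were. Calls of 22 genes held under all 5 scalings of the scanner values, 15 of them lower and 7 higher. Of the 7, 5 belong to the lid, and the other two are the chaperones Psmd5 and Psmg2. The sign of 12 genes turned under at least 1 of these scalings. Of the 8 genes with TGACNNNGC in the promoter, Psmd3 was higher, Psme4 was not called and 6 were lower. Of the 7 with GAAANNGAAA, Psmd7 was higher, Psmg4 was not called and 5 were lower.

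**Figure D1:**
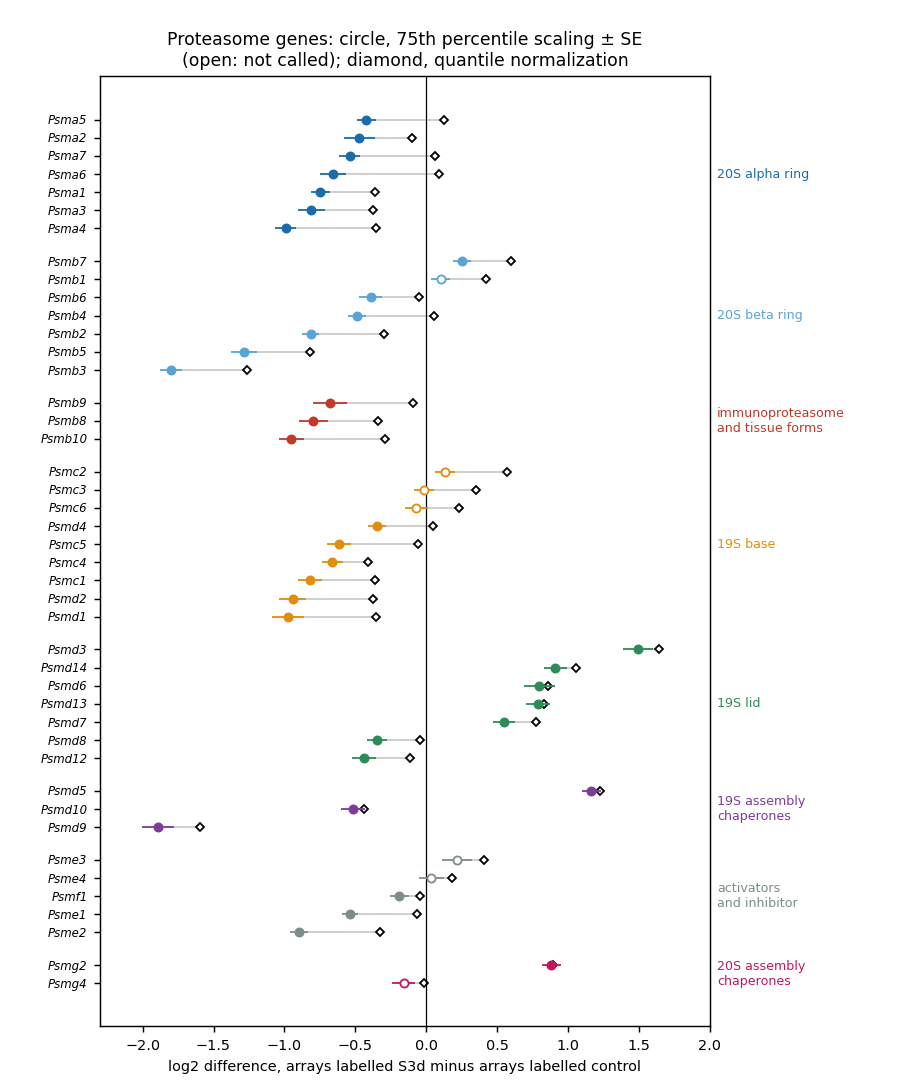
Log2 difference in signal, arrays labelled S3d minus arrays labelled control, of the 43 proteasome genes tested, grouped by their place in the complex. Circles with bars are the values after scaling to the 75th percentile ± SE (3 arrays per group, open where not called) and diamonds those after quantile normalization. Psmd3, Psmd14, Psmd6, Psmd13 and Psmd7 of the lid lie right of 0 under both, whereas 4 of the 7 genes of the alpha ring, Psma2, Psma5, Psma6 and Psma7, move to between -0.10 and 0.12 under quantile normalization.

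The spread within a group was small against most of these differences. The SD over 3 arrays had a median of 0.081 among the controls and 0.062 among the S3d arrays over the 43 genes, and no gene had an SD above 0.212.

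With percentile scaling every gene tested of the alpha ring was lower. All 7 genes were called, with differences from -0.99 for Psma4 to -0.42 for Psma5 and a median of -0.66, but with quantile normalization only Psma1, Psma3 and Psma4 were called and the sign of Psma5, Psma6 and Psma7 turned. Psma4 had signals of 6.62, 6.52 and 6.48 on the arrays labelled control and of 5.58, 5.47 and 5.58 on those labelled S3d. Every control array was above every S3d array. The 1.99-fold lower signal of Psma4 had an SE of 0.07 on the log2 scale (adjusted p = 6.6e-05, limma), and its difference was between -1.20 and -0.35 over the 5 scalings. Psma3, whose amino end helps to close the gate of the barrel, had a difference of -0.81 ± 0.09 (SE, n = 3 arrays per group, limma adjusted p = 0.00044). Psma5 gave 5.77, 5.66 and 5.61 in the controls and 5.26, 5.22 and 5.30 in the S3d group. Its groups were apart by less than those of Psma4, with a difference of -0.42 ± 0.07 (SE). Psma2 had a difference of -0.47 ± 0.11, and on the S3d arrays it was the member of the ring with the widest spread, from 3.68 to 4.06.

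The beta ring held both the lowest of the core genes and a gene that was higher. Of its 7 genes, 5 were lower, Psmb7 was higher and Psmb1 was not called, while with quantile normalization 3 were lower and 2 higher. Psmb3, a structural subunit without a cutting site, read 6.56, 6.44 and 6.40 on the control arrays and 4.70, 4.58 and 4.72 on the S3d arrays. The groups were far apart, with a 3.48-fold lower signal (difference -1.80 ± 0.07 SE, adjusted p = 1.5e-05) that lay between -2.0045 and -1.1492 over the 5 scalings. The RefSeq table lists 8 pseudogenes of Psmb3, and whether its probe also captures RNA of these was not tested. Psmb1 was at 3.67, 3.57 and 3.60 in the controls and at 3.69, 3.68 and 3.78 in the S3d group. These values just failed to overlap, and the difference of 0.10 ± 0.06 was not called (adjusted p = 0.2), although it was called higher with quantile normalization (0.42) and turned to -0.10 with median centring.

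Of the 3 catalytic subunits of the core, Psmb5 and Psmb6 were lower and Psmb7 was higher. Psmb5 carries the chymotrypsin-like site, and its promoter is given above. Its signals were 5.93, 5.71 and 5.70 on the control arrays and 4.56, 4.40 and 4.52 on the S3d arrays. No S3d array came near a control array, and the signal was 2.44-fold lower (difference -1.29 ± 0.09 SE, adjusted p = 6.4e-05), with -1.49 to -0.72 over the 5 scalings. Psmb6, the caspase-like subunit, read 4.10, 3.94 and 3.89 against 3.63, 3.52 and 3.60. The groups were apart by a smaller step, -0.39 ± 0.08 (adjusted p = 0.0051), which was -0.05 and not called with quantile normalization. Psmb7, the trypsin-like subunit, read 3.73, 3.69 and 3.72 in the controls and 3.92, 3.95 and 4.03 in the S3d group. Here the S3d arrays were the higher ones. The difference was 0.25 ± 0.06 (adjusted p = 0.0099), and it was 0.05 and not called with median centring, which moved the median of all probes by -0.20.

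The immunoproteasome subunits were lower too. All 3 genes with a probe were called, with a median difference of -0.80, and their signs held under all 5 scalings. The differences were much smaller with quantile normalization, where the median was -0.29 and Psmb9 was not called, and with normexp before it, where the median was -0.23. Psmb8, the counterpart of Psmb5, read 5.73, 5.42 and 5.45 on the control arrays and 4.82, 4.67 and 4.72 on the S3d arrays. The first control array was the highest, and no array of the other group reached the controls (difference -0.80 ± 0.10 SE, 1.74-fold, adjusted p = 0.00069). Psmb9, the counterpart of Psmb6, read 6.25, 6.13 and 6.20 against 5.74, 5.49 and 5.32. Its S3d arrays had the widest spread of the catalytic genes, and the difference was -0.68 ± 0.12 (adjusted p = 0.0025). Psmb10, the counterpart of Psmb7, read 6.77, 6.56 and 6.59 against 5.61, 5.65 and 5.80. With percentile scaling this was the lowest difference of the 3, -0.95 ± 0.09 (1.94-fold, adjusted p = 0.00018), but with quantile normalization Psmb8 (-0.34) was lower than Psmb10 (-0.29). Leukocyte markers moved in the same direction: Ptprc, the pan-leukocyte surface phosphatase, had a difference of -2.64, Cd3e of T cells -0.40 and Cd79b of B cells -1.13, and Cd68 of macrophages -0.50, whereas Itgam of myeloid cells was higher (0.97) and Lyz2 was not called. Their part in the immunoproteasome values was not tested.

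**Figure D2:**
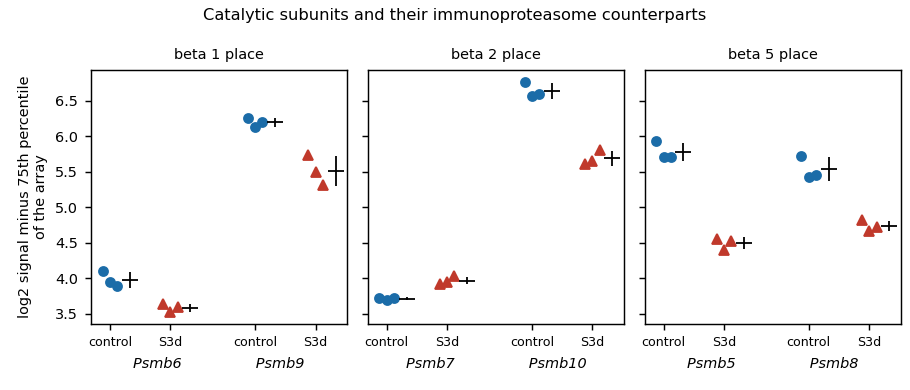
Log2 signal minus the array's 75th percentile (y axis) of the 3 constitutive catalytic genes and their immunoproteasome counterparts, per array. Circles are the arrays labelled control and triangles those labelled S3d, with the mean ± SD (n = 3) beside them. The triangles lie below the circles for 5 of the 6 genes and above them for Psmb7.

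The exchange of a constitutive for an immunoproteasome subunit was followed as the log2 ratio of their probes within each array, which does not depend on a constant scaling of the array. For Psmb8 over Psmb5 it was -0.20, -0.29 and -0.25 on the control arrays and 0.26, 0.27 and 0.19 on the S3d arrays. The ratio was higher on every S3d array, by 0.49, with the lower difference in Psmb5. For Psmb10 over Psmb7 it went from 3.04, 2.87 and 2.87 down to 1.69, 1.70 and 1.77. That is a difference of -1.20 without overlap, which was -0.89 with quantile normalization and -0.72 with normexp before it. For Psmb9 over Psmb6 the values were 2.15, 2.19 and 2.31 against 2.11, 1.97 and 1.72. The difference was -0.29, and the lowest control array was close to the highest S3d array. It was only -0.043 with quantile normalization and -0.0952 with normexp before it, where the exact permutation test gave p = 0.9 and p = 0.7. The exact permutation test over arrays (two-sided, 3 ratios compared) gave p = 0.1 for each with percentile scaling, 0.1 after adjustment, which is the smallest p that 3 arrays against 3 allow. Ratios of different probes say nothing of the relative amount of the subunits.

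**Figure D3:**
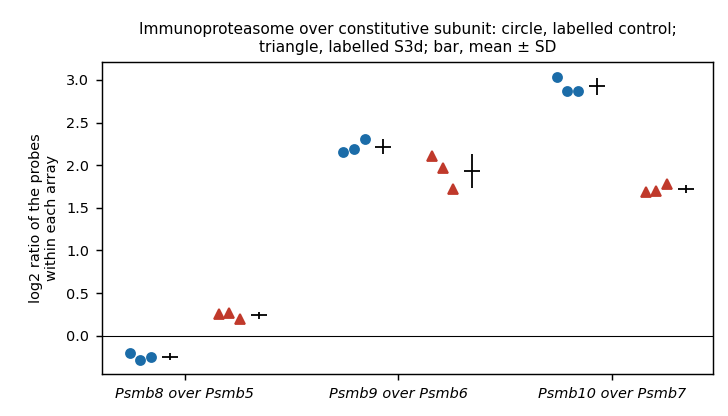
Log2 ratio of the probe of an immunoproteasome subunit to that of the constitutive subunit it replaces, within each array (y axis), with the mean ± SD (n = 3) beside the points. Psmb8 over Psmb5 is higher on the arrays labelled S3d (triangles) by 0.49. Psmb9 over Psmb6 is lower by 0.29 with nearly touching groups (-0.043 with quantile normalization). Psmb10 over Psmb7 is lower by 1.20 (-0.89 with quantile normalization).

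The base of the regulatory particle was split between genes that were lower and genes that were not called. Of its 9 genes, 6 were lower and none higher, with a median of -0.61, and with quantile normalization 4 were lower and 3 higher. With percentile scaling the largest scaffold subunits had the lowest values, while with quantile normalization Psmc4 was the lowest (-0.41). Psmd1 read 6.66, 6.38 and 6.30 in the controls and 5.45, 5.41 and 5.57 in the S3d group. The groups were nearly 1 unit apart (difference -0.97 ± 0.11 SE, adjusted p = 0.00044). Psmd2 read 6.24, 6.17 and 6.11 against 5.37, 5.08 and 5.25, with a difference of -0.94 ± 0.09. Both differences kept their call under all 5 scalings, with -1.18 to -0.28 for Psmd1 and -1.15 to -0.38 for Psmd2. However, another probe of each gene went the opposite way, as given below. Among the ATPases, Psmc2 had a difference of 0.13 ± 0.07 (adjusted p = 0.15) and Psmc3 of -0.02 ± 0.07 (adjusted p = 0.84). The groups of both overlapped. With quantile normalization Psmc2 (0.57) and Psmc3 (0.35) were called higher, and with median centring Psmc3 was called lower (-0.22).

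Most genes of the lid were higher. Of its 7 genes with a probe, 5 were higher and 2 were lower, with a median of 0.79, and the same 5 were called higher under all 5 scalings. Psmd3, a scaffold subunit of the lid whose promoter is shown above, read 1.70, 1.42 and 1.52 on the control arrays and 3.02, 2.94 and 3.17 on the S3d arrays. The signal was 2.82-fold higher without overlap (difference 1.49 ± 0.10 SE, adjusted p = 6e-05), and it was between 1.29 and 1.65 over the scalings. Psmd14, the metalloprotease that cuts the ubiquitin chain from the substrate, read 1.93, 1.84 and 1.69 against 2.69, 2.72 and 2.78. Every S3d array was above every control array, and the difference was 0.91 ± 0.08 (1.88-fold, adjusted p = 0.00015). The other genes of the lid that were higher are named because they are few. Psmd6 had a difference of 0.80 ± 0.11, Psmd13 of 0.79 ± 0.08 and Psmd7, the partner of Psmd14 in the lid, of 0.55 ± 0.08. In contrast, Psmd12 read 4.09, 3.83 and 3.90 against 3.52, 3.46 and 3.51. This was lower by a difference of -0.44 ± 0.09 (adjusted p = 0.004). Psmd8 had a difference of -0.35 ± 0.07 (adjusted p = 0.0053). Both lost their call with quantile normalization, where Psmd12 was at -0.12 and Psmd8 at -0.05.

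The 3 chaperones that help to build the base moved in both directions. Psmd9 had the lowest value of all 43 genes, with 4.88, 4.59 and 4.47 on the control arrays and 2.79, 2.72 and 2.76 on the S3d arrays. The lowest control array was still well above the highest S3d array, and the signal was 3.71-fold lower (difference -1.89 ± 0.12 SE, adjusted p = 3.8e-05). Psmd5 read 0.72, 0.84 and 0.71 in the controls against 1.89, 1.95 and 1.93 in the S3d group. Its signal was 2.24-fold higher, with the groups again apart (difference 1.16 ± 0.07, adjusted p = 3.1e-05). Psmd10, also known as gankyrin, read 2.15, 1.96 and 1.91 against 1.56, 1.46 and 1.45. It was lower by a smaller step, -0.52 ± 0.09 (adjusted p = 0.002). All 3 calls held under the 5 scalings.

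Of the chaperones that build the core particle, Psmg2 and Psmg4 had a probe. Psmg2 read -0.06, 0.08 and 0.05 on the control arrays and 0.94, 0.86 and 0.91 on the S3d arrays. It was 1.84-fold higher without overlap (difference 0.88 ± 0.07, adjusted p = 8e-05). Psmg4 had a difference of -0.16 ± 0.08 and overlapping groups, and it was not called (adjusted p = 0.13), although it was called lower with median centring (-0.36) and without the first control array (-0.23).

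Of the activators that cap the core in place of the regulatory particle, Psme1 and Psme2 were lower and Psme3 and Psme4 were not called. Psme1 and Psme2 form the interferon-inducible cap that goes with the immunoproteasome. Psme2 read 6.14, 6.08 and 6.14 in the controls and 5.27, 5.18 and 5.22 in the S3d group. The groups were tight and apart (1.86-fold lower, difference -0.90 ± 0.06, adjusted p = 5.6e-05), and the difference was -0.33 with quantile normalization. Psme1 had a difference of -0.54 ± 0.06 (adjusted p = 0.0003), which was -0.07 and not called with quantile normalization and turned to 0.07 with normexp before it. Psme3, the nuclear activator, was at 0.22 ± 0.11 (adjusted p = 0.1), and its groups overlapped, although it was called higher with quantile normalization (0.41). Psme4 was at 0.03 ± 0.09 (adjusted p = 0.74) and overlapped as well. Psmf1, a gene named for inhibition of the proteasome, was called lower by a narrow margin (difference -0.19 ± 0.07, adjusted p = 0.04). That call was lost when any array other than the third S3d array was left out, with differences of -0.21 to -0.15, and with quantile normalization (-0.04).

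The brightness of the probes moved with these values. All probes tested were put in 4 groups by their mean signal, and 42 of the 43 genes were in the brightest group, where 52.2% of all probes were lower and 25.3% higher with a median of -0.26. In that group 28 of the 42 genes were lower and 7 were higher, with a median of -0.48. In the dimmest group of all probes the median was 0.68. Over the 43 genes the difference was lower at a higher mean signal (Pearson r = -0.725, Spearman rho = -0.751, over genes that share the 6 arrays), while over all probes Spearman's rho was -0.336. The part of brightness in the values was not tested. Against all probes of like signal in 20 bins, 31 of the 43 genes had a difference within the middle of their bin, between its quartiles. Psmb3, Psmb5 and Psmd9 lay below it. Above it were the 5 genes of the lid that were higher, and Psmb7, Psmc2, Psmd5 and Psmg2. All 7 genes of the alpha ring and all 3 immunoproteasome genes were within the middle of their bin.

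**Figure D4:**
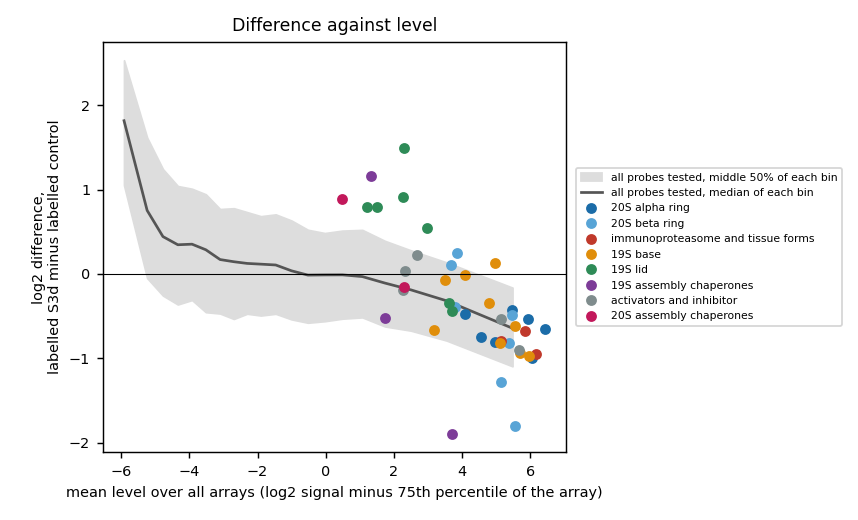
Log2 difference, arrays labelled S3d minus arrays labelled control (y axis), against the mean log2 signal minus the 75th percentile over all 6 arrays (x axis) for the 43 proteasome genes, coloured by group. The line is the median of all 31431 probes tested in 20 bins of signal and the band their middle part, between the quartiles. Against the quartiles of their own bin, genes of the alpha ring lie within. The 5 lid genes that were higher lie above, and Psmb3, Psmb5 and Psmd9 below. The band ends at the median signal of the brightest bin, 5.48, and some genes, such as Psma4, Psma6 and Psma7, lie to the right of its end.

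Several probes of a gene did not always agree. For 7 genes there was more than 1 probe, and for 4 of them another probe had the opposite sign to the brightest. The second probe of Psmd1 read 3.55, 3.59 and 3.44 on the control arrays, and all S3d arrays lay above these, with a mean of 3.93. It was higher by 0.40 ± 0.07 (adjusted p = 0.003), where the brightest probe was lower by nearly 1 unit. The second probe of Psmd2 was likewise higher, by 0.36 ± 0.08 (adjusted p = 0.0059). The second probes of Psma6 (0.09 ± 0.07) and Psmc4 (0.05 ± 0.06) were not called, where their brightest probes were at -0.66 and -0.66. Psmd7 had 3 probes with differences of 0.55, 0.07 and 1.91, the first and the last of them called higher. The direction of Psmd1 and Psmd2 thus depends on which probe is read, and the sequences of the probes were not used here. Probes named by an accession can capture other transcripts or pseudogenes, and the RefSeq table lists 48 pseudogenes for 19 of the 44 genes.

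**Figure D5:**
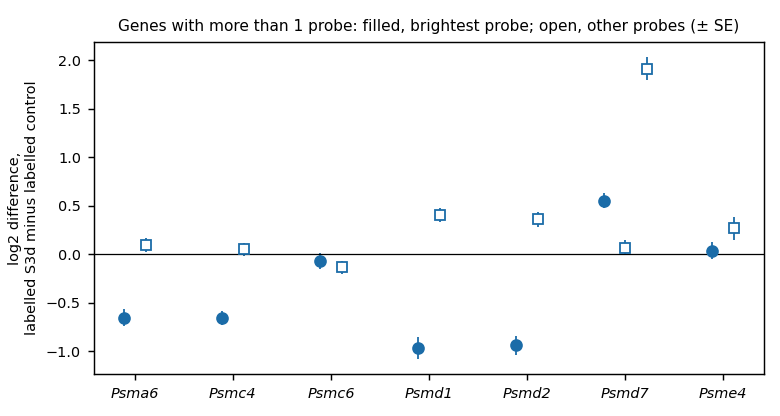
Log2 difference ± SE, arrays labelled S3d minus arrays labelled control (y axis), of every probe of the 7 proteasome genes with more than 1 probe. Filled circles are the brightest probe and open squares the others. For Psmd1 the filled circle is at -0.97 and the square at 0.40, for Psmd2 they are at -0.94 and 0.36, and the probes of Psmd7 span 0.07 to 1.91.

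Genes that work with the proteasome were read beside it. Of 30 such genes listed, 24 had a probe and were tested. Of these, 11 were lower, 7 higher and 6 not called, with a median of -0.04. Of all probes tested, 34.4% were lower and 39.6% higher. With quantile normalization 6 of the 24 genes were lower and 13 higher, where 35.5% and 35.0% of all probes were. Pomp, the factor that matures the core particle, read 7.19, 7.05 and 7.01 on the control arrays and 5.56, 5.65 and 5.78 on the S3d arrays. It was 2.68-fold lower without overlap (difference -1.42 ± 0.09, adjusted p = 4.1e-05), and -0.75 with quantile normalization. Adrm1, a ubiquitin receptor on the base, went the other way, with -1.93, -1.61 and -1.58 against -0.57, 0.02 and 0.15. The S3d arrays varied more, and all were above the controls (difference 1.57 ± 0.21, adjusted p = 0.00082). Of these 6 genes that bind or mature the proteasome, 4 were lower and 1 was higher.

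Of 6 genes for ubiquitin and its activating enzymes, 4 were lower and 1 was higher. Ubb and Rps27a, which encode ubiquitin, had differences of -0.68 ± 0.07 (adjusted p = 0.00023) and -0.56 ± 0.06 (adjusted p = 0.00042) and were called lower, but with quantile normalization Ubb (0.59) and Rps27a (0.24) were called higher. Both were chosen for mention after their values were seen. Uba6, an enzyme that activates ubiquitin, was higher by 0.54 ± 0.07 (adjusted p = 0.00052), although it was -0.31 with normexp before percentile scaling. With normexp before quantile normalization Uba6 was at 0.19 and called higher. Of 6 genes for shuttles and the unfoldase, 2 were higher and 2 lower. Vcp, the unfoldase that hands ubiquitinated proteins to the proteasome, had a difference of 0.45 ± 0.08 (adjusted p = 0.0031). It was 0.25 with median centring and 0.92 with quantile normalization. Ubqln2, a shuttle, had a difference of -1.13 ± 0.27 (adjusted p = 0.01).

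Among genes that control proteasome genes, Nfe2l2 and Ngly1 had a probe, and Nfe2l1 had none. Nfe2l2, the factor whose element was searched for in the promoters, read 3.06, 3.10 and 3.07 on the control arrays and 4.98, 4.94 and 4.80 on the S3d arrays. It was 3.55-fold higher, with no overlap (difference 1.83 ± 0.07, adjusted p = 1.4e-05). Ngly1, the glycanase that readies NFE2L1 for activity, was at 0.09 ± 0.06 and not called (adjusted p = 0.24). It was called higher with quantile normalization (0.20) and with normexp before percentile scaling (0.27), and as the mean of its 3 probes (0.79), but it was -0.12 with median centring. Of 4 interferon-gamma genes tested, 2 were higher, 1 was lower and 1 was not called. Tap2 was higher by 0.63 ± 0.12 (adjusted p = 0.0045), with 2.94, 2.80 and 3.04 in the controls and 3.75, 3.58 and 3.34 in the S3d group. Tap1, the neighbour of Psmb9 shown above, was also higher, by 0.39 ± 0.11 (adjusted p = 0.019), but 0.19 and not called with median centring.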

How the data were processed

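Jejunal RNA of the control and S3d groups was measured on 6 one-colour Agilent rat arrays, 3 per group. The authors deposited 1 scanner file per array, made with Agilent Feature Extraction 10.7 per the submitters' processing notes. The deposited intensity values are processed signals, from which the program had subtracted the background, not normalized between arrays. They also deposited a table of log2 values of 41105 probes, whose sorted columns differ by at most 0.0025, as after quantile normalization. Its group labels are described above.

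Control and outlier spots were dropped, and replicate spots of 1 probe were averaged. Log2 processed signals, less the array's 75th percentile, were compared between groups by lmFit and eBayes of limma 3.58.1, run under R 4.3.3, with no block. A probe was tested where each of the 3 arrays of at least 1 group showed it well above background, and p-values were adjusted by Benjamini-Hochberg over the 31431 probes tested. Calls were made at an adjusted p under 0.05. Of 41012 probes, 17512 were named through a RefSeq accession and the RefSeq table of GRCr8. Ratios were tested in Python 3.11.15 with scipy 1.17.1. The methods name a general analysis of variance and give no array normalization.

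The genes named are the catalytic, activator, inhibitor and chaperone genes, the highest and lowest differences of each ring, the base and the lid, and of each group of partner genes. A few genes that this rule or the lists would name are not reported here, though list counts include them. Genes outside this rule are also named in places, as where counts are small or where a gene has several probes. The named genes counted and listed below are those of the rule only. The members, lists and tests were chosen with earlier results of these data known. The alternatives were other scalings, filters, tests and probes, each array left out, and the replicate number as a block. Limma was tested on simulated data. The number of arrays limits the precision.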

Additional observations from a re-analysis of the deposited data

How the results depend on the processing

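Counts of calls by direction depended on the scaling. Over all probes, 12449 were called higher with the 75th percentile and 6645 with normexp before it, and 10806 and 18912 were called lower. Proteasome genes called higher and lower, 8 and 28 with the 75th percentile, were 13 and 15 with quantile normalization, 14 and 15 with normexp before quantile normalization, and 15 and 13 in the deposited table by its own labels. Partner genes called higher and lower, 7 and 11, were 13 and 6 with quantile normalization, and 13 and 6 with normexp before it. The other scalings, filters and tests kept the counts of proteasome and partner genes within 1.5 times. Of all calls, 53.5% were higher, against 49.6% with quantile normalization, 42.9% with median centring and 26.0% with normexp before percentile scaling. Median centring moved the median of all probes by -0.20, normexp before percentile scaling by -0.51 and the deposited table by -0.10. Relative to the median of all probes, the median of the 43 genes was -0.56 in the main setting and with median centring, -0.06 with quantile normalization and 0.13 with normexp before percentile scaling.

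In the deposited table the ratios turned to -0.48 for Psmb8 over Psmb5, 0.0406 for Psmb9 over Psmb6 and 0.88 for Psmb10 over Psmb7. The differences there also turned for 36 of the 38 named genes, as the group labels are exchanged there: Psma2 0.10, Psma3 0.37, Psma4 0.35, Psmb1 -0.43, Psmb3 1.26, Psmb5 0.81, Psmb6 0.0485, Psmb7 -0.60, Psmb8 0.33, Psmb9 0.0891, Psmb10 0.28, Psmc2 -0.58, Psmd1 0.35, Psmd2 0.38, Psmd3 -1.65, Psmd5 -1.23, Psmd8 0.0442, Psmd9 1.59, Psmd10 0.44, Psmd12 0.11, Psmd14 -1.06, Psme1 0.0617, Psme2 0.32, Psme3 -0.41, Psme4 -0.18, Psmf1 0.0383, Psmg2 -0.89, Psmg4 0.0095, Adrm1 -1.51, Nfe2l2 -2.18, Ngly1 -0.20, Pomp 0.74, Tap2 -0.90, Uba6 -0.28, Ubqln2 1.33 and Vcp -0.93. With quantile normalization Psma5 turned to 0.12 and Psmc3 to 0.35, and with normexp before it Psma5 to 0.081, Psmc3 to 0.39, Psmd8 to 0.0044 and Psme1 to 0.0707. Median centring turned Ngly1 to -0.12, Psmb1 to -0.10, Psmc2 to -0.0725 and Psme4 to -0.17, and normexp before percentile scaling turned Psmc3 to 0.16 and Uba6 to -0.31. Over the fits without 1 array, Psmc3 ranged from -0.0525 to 0.0254, above 0 without control replicate 1 (0.0028) and without S3d replicate 2, and Psme4 from -0.0121 without S3d replicate 3 to 0.1105. The cause of these turns was not tested, beyond the exchanged labels.

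Leaving out each array in turn gave 21467 to 22837 calls over all probes against 23255, 8 proteasome genes higher each time and 27 to 28 lower, 6 to 7 partner genes higher and 11 lower each time. The ratios ranged from 0.47 to 0.51 for Psmb8 over Psmb5, from -0.38 to -0.18 for Psmb9 over Psmb6 and from -1.23 to -1.15 for Psmb10 over Psmb7.

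The replicate numbers do not pair the samples: deviations of same-numbered arrays correlated at 0.02, 0.022 and -0.049. With the replicate block 22227 probes were called, and 9 proteasome genes were higher and 27 lower. Psme3 gained a call and Psmf1 lost its call in it. The slide could not be a block, since no slide holds both groups. Normexp was run on the median spot signal, because the files hold no mean signal, and before it the local background of 6 probes on control array 3, over 5 times the array's median, was set to that median. Normexp with percentile scaling was chosen after seeing the data. Without the filter on dim probes Psmf1 was not called. With 3 arrays per group, no exact test over arrays can pass 0.05, and group and slide cannot be told apart.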
